A study of Mus musculus with 4 samples.

Results

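A set of 10 genes, out of the 31053 in the deposited matrices, was followed through the B cells of mouse spleen: Cr2, Cd1d1, Dtx1, Cd9, Myof, S1pr3, Plac8, Asb2, Cd36 and Fcer2a. They were taken from a list of genes that part marginal zone from follicular B cells. The first 9 are called marginal zone genes below and the last, Fcer2a, the follicular gene. Each was described per B cell type of the authors' annotation and per library. All 10 were present in the matrices.

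The study profiled spleen cells of C57BL/6 mice by droplet single-cell RNA sequencing, with 1 library for each of 4 groups. The groups were young wild type (young WT), aged wild type (aged WT), aged mice without miR-146a in any cell (miR-146a knockout), and aged mice of that knockout whose T cells also lacked miR-155 (double knockout). Aged mice were 15 months old, and each aged library pooled 3 to 6 mice. The wild type mice carried a floxed miR-155 gene, a conditional allele without deletion. The sources used here do not give the Cre driver of the T cell deletion, the age and pool size of the young mice, or whether the miR-146a knockout carried the floxed allele. Live CD45+ cells of low scatter, a gate for lymphocytes, were sorted, so B cells are among the cells it keeps. In the double knockout, B cells themselves lacked miR-146a and not miR-155.

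The 4 libraries held 3316 (young WT), 3719 (aged WT), 2473 (miR-146a knockout) and 3336 (double knockout) annotated B cells, 12844 of 24143 annotated cells in all. A B cell held a median of 1940.5, 1928, 2729 and 2111.5 UMIs (unique molecular identifiers, each standing for 1 captured transcript). Levels are given as CPM, the UMIs of a gene per 1000000 UMIs summed over the cells of a type in a library. Ranges in parentheses are 95% counting intervals. With 1 library per group there was no replicate and no test between groups, and the intervals cover neither mice, pools nor preparations. Genes are called higher or lower where the 2 profiles held at least 20 UMIs and the ratio, with 0.5 count added to each sum, reached 1.5-fold, which is a matter of size alone. Among annotated cells, 315 barcode sequences occurred in more than 1 library.

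Marginal zone B cells sit at the border of the splenic white pulp, where blood flows past them, and answer early to blood-borne antigen. Follicular B cells recirculate through follicles and depend on T cell help for most of their responses. In mice, the marginal zone fate needs Notch2 signalling in the B cell, and its surface pattern is high CD21, the product of Cr2, with low CD23, the product of Fcer2a. Follicular B cells have the reverse pattern of CD23.

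Promoter windows of the genes were read for a motif of Notch signalling. Signalling through Notch2 acts on DNA through the factor RBPJ, whose core motif GTGGGAA was searched on both strands (its other-strand form is TTCCCAC) in 300 bases around each RefSeq transcription start, from 250 before to 50 after, on build GRCm38.p6. Of 32851 such windows of all genes, 6.38% held it. RefSeq windows were found for 9 of the 10 genes, 13 windows in all. The motif was in a window of 2 of these genes, Cr2 and Cd9, which are printed because they hold it, and Dtx1 is printed beside them because it is a textbook Notch target without the motif in this window. Capitals mark the motif; each sequence is given 5′ to 3′ on the gene's strand, which is the minus strand for all 3.
Cr2 (chr1:195176670-195176969): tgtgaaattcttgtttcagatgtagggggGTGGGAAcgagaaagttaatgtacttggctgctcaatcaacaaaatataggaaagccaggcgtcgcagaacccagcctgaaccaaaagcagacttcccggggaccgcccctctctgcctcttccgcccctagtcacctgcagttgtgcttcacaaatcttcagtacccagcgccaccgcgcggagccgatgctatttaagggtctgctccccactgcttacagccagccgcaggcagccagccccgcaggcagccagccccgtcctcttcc
Cd9 (chr6:125494711-125495010): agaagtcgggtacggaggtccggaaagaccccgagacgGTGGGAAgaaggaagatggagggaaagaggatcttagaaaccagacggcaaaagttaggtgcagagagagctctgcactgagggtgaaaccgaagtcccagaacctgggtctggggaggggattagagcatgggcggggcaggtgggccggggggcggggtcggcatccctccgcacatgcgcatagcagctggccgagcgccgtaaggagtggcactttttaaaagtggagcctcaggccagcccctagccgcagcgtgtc
Dtx1 (chr5:120711620-120711919): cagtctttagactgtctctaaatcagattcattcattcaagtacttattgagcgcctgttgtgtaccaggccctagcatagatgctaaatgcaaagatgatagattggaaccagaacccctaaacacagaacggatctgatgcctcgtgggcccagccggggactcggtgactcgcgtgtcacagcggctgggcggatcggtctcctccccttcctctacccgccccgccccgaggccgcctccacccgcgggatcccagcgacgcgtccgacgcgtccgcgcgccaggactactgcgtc
The motif began 221 bases before the start in Cr2 and 212 bases before it in Cd9. A match is a description of letters and shows neither binding nor its absence.

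The annotated types were first set against marker genes. Pan-B markers (Cd79a, Cd79b and Ms4a1) summed to 6413 to 7768 CPM in MZ B cells and 7306 to 8064 CPM in Fo B cells, against 86.7 to 174 CPM in naive CD8 T cells. T cell markers (Cd3d, Cd3e, Cd3g) summed to at most 60.3 CPM in MZ B and 48.8 CPM in Fo B cells. Cells annotated Trans B had the highest transitional marker sum (Cd93, Vpreb3, Cd24a) in each library, 2418, 2113, 4983 and 4130.4 CPM in the order young WT, aged WT, miR-146a knockout, double knockout. That sum was higher in both knockout libraries than in both wild type libraries.

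Cells annotated GC Centroblast went against their name. Their 7 germinal centre markers (Bcl6, S1pr2, Mki67, Gcsam, Mef2b, Rgs13, Fas) summed to 41.8 to 91.0 CPM, against 741 to 1471 CPM in cells annotated GC Centrocyte. The sum was 20.7 to 26.0 CPM in Fo B and 25.5 to 43.5 CPM in MZ B cells, below GC Centroblast cells in each library. The proliferation gene Mki67 was at 1.53 to 2.18 CPM in GC Centroblast and 219 to 349.7 CPM in GC Centrocyte cells. Bhlhe41 and Zbtb32, transcription factor genes known from B-1 cells, were at 65.9 to 113 and 21.4 to 68.9 CPM in GC Centroblast cells, against at most 9.93 and 1.24 CPM in Fo B cells. The B-1 marker Cd5 was low there, at 3.81 to 7.66 CPM. These cells are therefore called by their annotated name only, as a label. GC Centrocyte was the smallest type, with 44, 51, 129 and 150 cells, and its T cell markers summed to 170.1 to 796 CPM. In young WT its platelet markers (Pf4, Ppbp, Itga2b, Gp9) summed to 989 CPM, against 0 in aged WT.

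**Figure D1:**
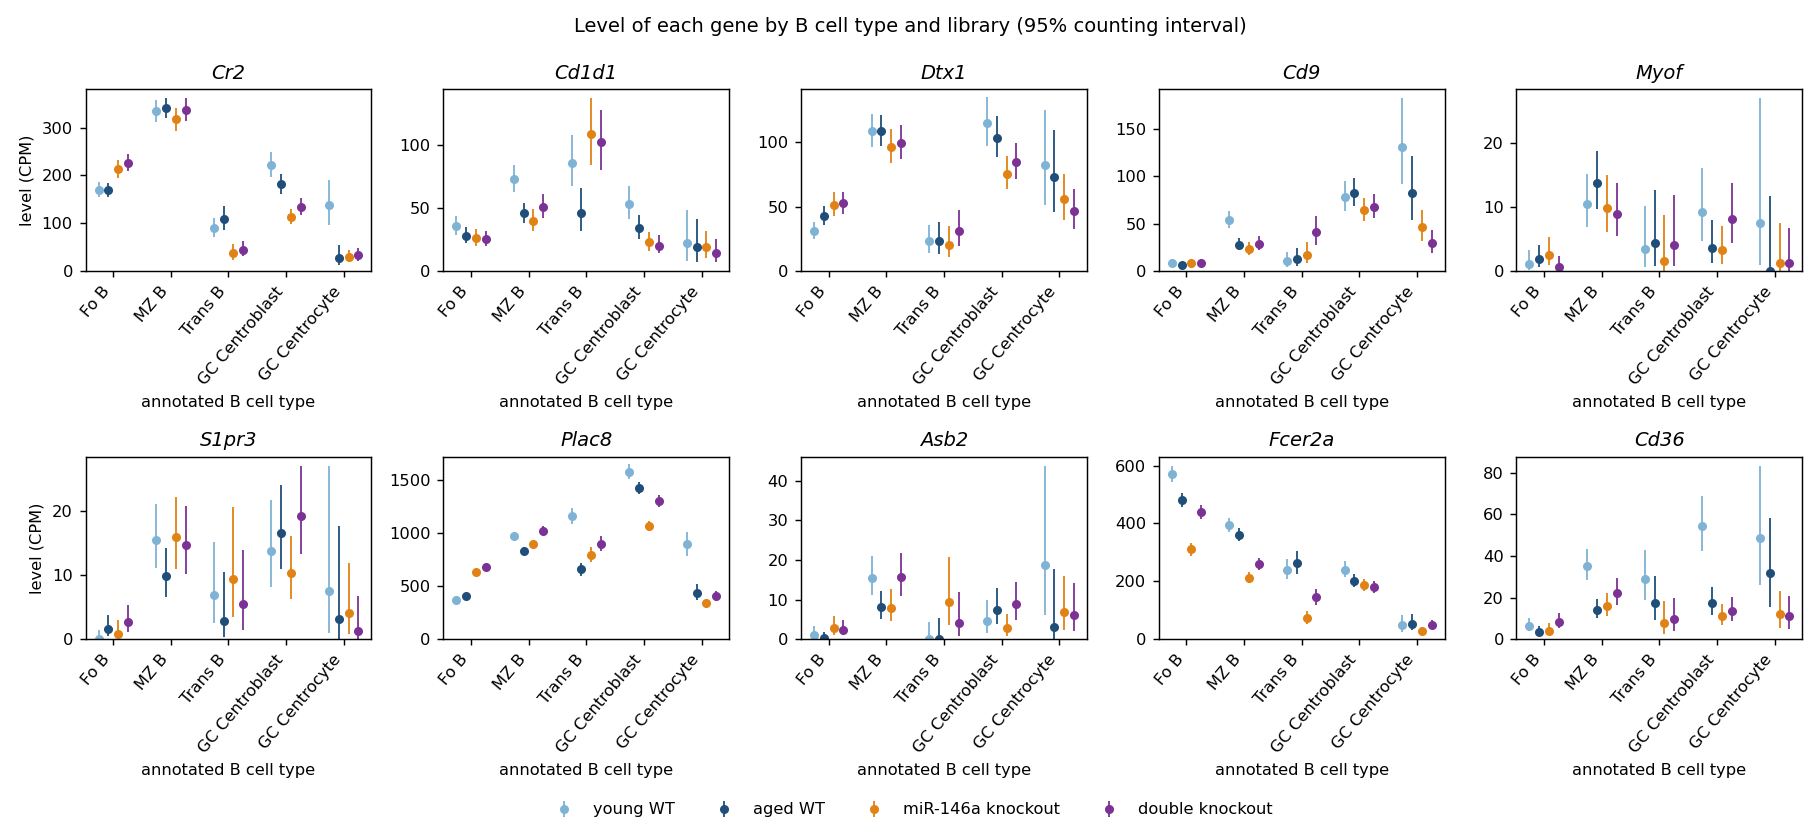
Level of each gene in CPM (vertical axis, linear, from 0; each panel has its own scale) in the 5 annotated B cell types, with 1 point per library and its 95% counting interval. Cr2 stands highest in MZ B cells (317 to 340.1 CPM) and Fcer2a highest in Fo B cells (310.2 to 570.0 CPM) in all 4 libraries, while Plac8 stands highest in cells annotated GC Centroblast.

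Within each library, the marginal zone genes stood higher in MZ B than in Fo B cells and Fcer2a stood lower. The authors may have named the cells by some of these genes, so this is a description of the annotation and supports nothing further. The median log2 ratio of MZ B over Fo B over the 9 marginal zone genes was 2.42, 1.96, 1.40 and 1.39 in young WT, aged WT, the miR-146a knockout and the double knockout, beside −0.02, −0.04, −0.03 and −0.05 over all genes tested. Called higher were 9, 9, 7 and 8 of the 9 genes, where 6.25%, 5.17%, 6.01% and 6.2% of all genes were. Leaving out cells with any UMI of a T cell or myeloid marker brought the median to 0.42 in the miR-146a knockout and to 0.48 in the double knockout, where it removed 85.6% and 85.1% of the B cells. In young and aged WT, where it removed 17.2% and 16.1%, the median came to 2.07 and 1.54. These medians were taken only over genes that still held at least 20 UMIs in the cells left, so they need not cover all 9 genes. How much of the fall came from a change of genes was not tested. Called lower was Fcer2a in the double knockout alone, 0, 0, 0 and 1 of the 10 genes, where 6.21%, 6.59%, 7.42% and 7.49% of all genes were.

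Cr2 (ENSMUSG00000026616, chr1:195136811-195176716, minus strand, as all gene positions here on GRCm38) encodes complement receptor 2, which binds complement fragments on antigen and lowers the threshold of the B cell receptor. Its level in MZ B cells was 334 CPM (young WT), 340.1 CPM (aged WT), 317 CPM (miR-146a knockout) and 337 CPM (double knockout). The Fo B level was 169.7, 169, 213 and 227 CPM in the same order. The MZ B level was thus nearly flat over the 4 libraries, while the Fo B level was higher in both knockouts than in both wild types. MZ B over Fo B was 1.97 (1.75 to 2.21) in young WT and 2.02 (1.81 to 2.24) in aged WT. It was lower in both knockouts, 1.49 (1.32 to 1.67) with miR-146a alone absent and 1.48 (1.34 to 1.65) in the double knockout. The wild type and knockout intervals of this ratio do not overlap. Both knockout ratios were just short of 1.5-fold. They passed it with edgeR's TMM scaling, at 1.53 and 1.54, and with each cell weighted alike, at 1.53 and 1.52.

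Fcer2a (ENSMUSG00000005540, chr8:3681737-3694175, minus strand) encodes CD23, the low-affinity receptor for IgE. Its Fo B level was 570.0 CPM (young WT), 480.2 CPM (aged WT), 310.2 CPM (miR-146a knockout) and 439.8 CPM (double knockout). The MZ B level was 394, 361, 212 and 259 CPM. The level was lower in MZ B than in Fo B cells in all 4 libraries, with MZ B over Fo B at 0.691 (0.638 to 0.749), 0.752 (0.694 to 0.814), 0.683 (0.607 to 0.769) and 0.588 (0.532 to 0.649). The gene was far from absent in MZ B cells: 52.5, 51.5, 41.3 and 39.9% of them held at least 1 UMI. In naive CD8 T cells, which should lack it, 0 to 2.30% did, at a median depth of 2967.5 to 3490 UMIs against 2196 to 3198 in MZ B cells.

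Dtx1 (ENSMUSG00000029603, chr5:120680202-120711927, minus strand) encodes Deltex 1, a ubiquitin ligase that Notch signalling induces. Its MZ B level was 109 CPM (young WT), 109 CPM (aged WT), 96.4 CPM (miR-146a knockout) and 99.3 CPM (double knockout), with no more than a small spread. In Fo B cells it was 31.0, 43.0, 51.7 and 52.7 CPM, lowest in young WT. MZ B over Fo B was 3.50 (2.73 to 4.54), 2.53 (2.06 to 3.12), 1.86 (1.49 to 2.35) and 1.89 (1.53 to 2.33).

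Cd1d1 (ENSMUSG00000028076, chr3:86995834-86999441, minus strand) encodes CD1d, which presents lipid antigens to natural killer T cells. Its MZ B level was 73.0 CPM (young WT), 45.9 CPM (aged WT), 40.2 CPM (miR-146a knockout) and 51.0 CPM (double knockout), so young WT stood above the other 3 libraries. The Fo B level was 35.9, 28.3, 26.5 and 25.7 CPM. MZ B over Fo B was 2.03 (1.58 to 2.63), 1.62 (1.23 to 2.14), 1.52 (1.09 to 2.14) and 1.99 (1.47 to 2.69). In the miR-146a knockout the call was lost with each cell weighted alike, at 1.38, and the direction turned without cells holding T cell or myeloid marker UMIs, at 0.917. The latter step left out 87.6% of its MZ B and 81.7% of its Fo B cells. The near-identical neighbour Cd1d2 is not a feature of the matrices, so reads of the pair, if any came from it, cannot be told apart from Cd1d1. In naive CD8 T cells Cd1d1 was at 20.3 to 33.3 CPM, close to the Fo B level.

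S1pr3 (ENSMUSG00000067586, chr13:51408639-51422797, plus strand) encodes a receptor for sphingosine 1-phosphate, a lipid of blood and lymph that guides lymphocyte position. Its MZ B level was 15.5 CPM (young WT), 9.88 CPM (aged WT), 15.9 CPM (miR-146a knockout) and 14.8 CPM (double knockout), from 40, 28, 34 and 33 UMIs. Fo B cells held 0, 5, 2 and 8 UMIs of it. Against the floor of 3 counts in the young Fo B cells, it was at least 13.6-fold higher in MZ B cells of that library. The ratio was 6.20 (2.37 to 20.6) in aged WT and 5.47 (2.48 to 13.7) in the double knockout, and 19.2 (4.93 to 165) in the miR-146a knockout, where the Fo B value rests on 2 UMIs.

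Cd9, Cd36 and Myof act at the cell membrane: Cd9 (ENSMUSG00000030342, chr6:125460266-125494791, minus strand) is a tetraspanin, Cd36 (ENSMUSG00000002944, chr5:17781690-17888801, minus strand) a scavenger receptor for lipids, and Myof (ENSMUSG00000048612, chr19:37899036-38043577, minus strand) encodes myoferlin, a ferlin of membrane fusion and repair. Cd9 in MZ B cells was at 54.1 CPM (young WT), 27.9 CPM (aged WT), 22.9 CPM (miR-146a knockout) and 29.1 CPM (double knockout), against 6.69 to 8.69 CPM in Fo B cells. Cd36 in MZ B cells was at 35.2, 14.1, 15.9 and 22.4 CPM, against 3.50 to 8.44 CPM in Fo B cells. Myof in MZ B cells was at 10.4, 13.8, 9.83 and 8.94 CPM, from 20 to 39 UMIs per library, against 0.675 to 2.48 CPM in Fo B cells, from 2 to 6 UMIs. For Cd9 and Cd36 the MZ B level was highest in young WT. MZ B over Fo B ranged from 2.77 to 6.22 for Cd9, from 2.65 to 5.47 for Cd36 and from 3.96 to 13.2 for Myof, and every interval lay above 1.

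Plac8 (ENSMUSG00000029322, chr5:100553725-100572245, minus strand) encodes a small cysteine-rich protein of lymphoid and myeloid cells. Its MZ B level was 970.0 CPM (young WT), 832 CPM (aged WT), 898 CPM (miR-146a knockout) and 1023 CPM (double knockout). The Fo B level was 369, 409, 632 and 682 CPM, higher in both knockouts than in both wild types. The ratio of MZ B over Fo B was therefore 2.63 (2.44 to 2.83) in young WT and 2.04 (1.90 to 2.18) in aged WT, but 1.42 (1.33 to 1.52) in the miR-146a knockout and 1.5 (1.41 to 1.59) in the double knockout. The last value sits on the 1.5-fold limit, and Plac8 loses its call there under 4 of the alternatives tried. Asb2 (ENSMUSG00000021200, chr12:103321142-103356001, minus strand) encodes the substrate-binding subunit of a ubiquitin ligase. It was at 15.5, 8.11, 7.96 and 15.7 CPM in MZ B cells, from 40, 23, 17 and 35 UMIs, against 3, 1, 7 and 7 UMIs in Fo B cells. Cr2, Dtx1 and Plac8 had a higher Fo B level in both knockouts than in both wild types, while their MZ B ratios of the miR-146a knockout over aged WT were 0.932, 0.887 and 1.08.

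**Figure D2:**
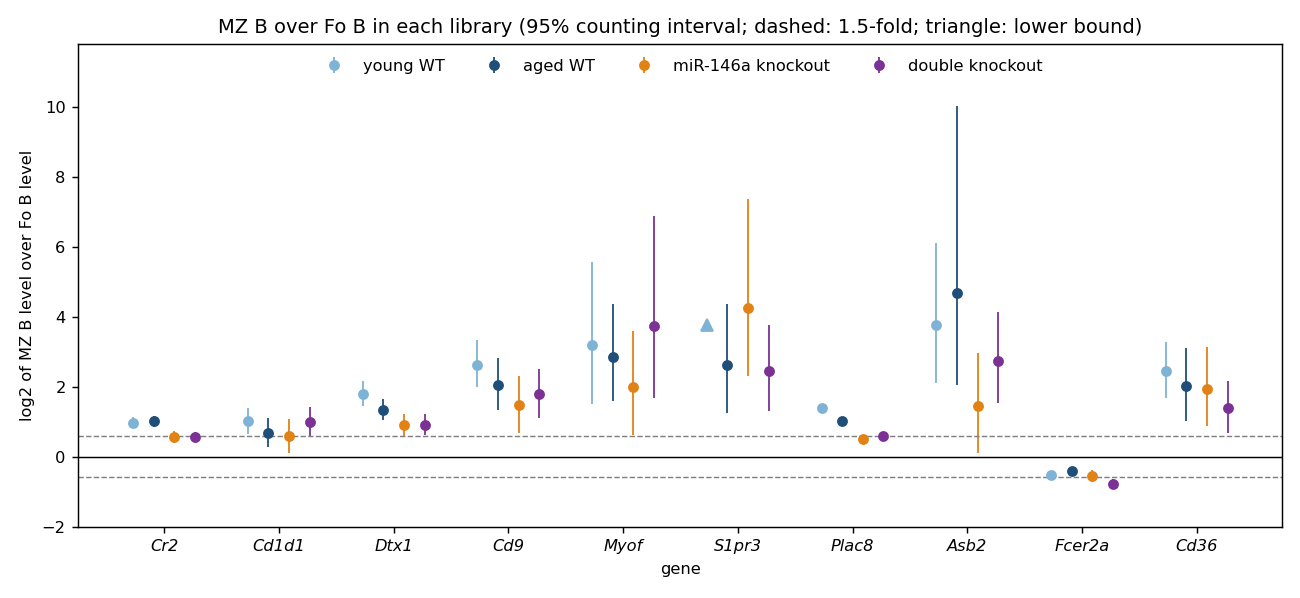
Log2 of the MZ B level over the Fo B level (vertical axis) for each gene and library; points are ratios of summed UMIs, bars 95% counting intervals, dashed lines 1.5-fold, and the triangle a lower bound where Fo B cells had 0 UMIs of S1pr3. Fcer2a lies below 0 in all 4 libraries, and Cr2 and Plac8 lie lower in both knockouts (ratios of 1.49 and 1.48 for Cr2, 1.42 and 1.5 for Plac8) than in both wild types.

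In the other B cell types the marginal zone genes did not move as 1 block. Over the 40 pairs of gene and library, the highest level was in MZ B cells 17 times, in GC Centroblast cells 10 times, in Trans B cells 5 times, in GC Centrocyte cells 4 times and in Fo B cells 4 times, these last all for Fcer2a. Cr2 and Myof were highest in MZ B cells in all 4 libraries. For Cr2 the interval of MZ B cells did not overlap that of the next type in any library. For Myof it overlapped in each.

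Plac8 was highest in GC Centroblast cells in all 4 libraries, at 1579, 1424, 1067 and 1305 CPM, above MZ B cells with intervals that did not overlap. Cd9 in GC Centroblast cells was at 78.1, 82.3, 64.3 and 67.7 CPM and also stood above MZ B cells in each library. Dtx1 was at 75.7 to 115 CPM there beside 96.4 to 109 in MZ B cells, S1pr3 at 10.3 to 19.3 beside 9.88 to 15.9, and Cd36 at 10.9 to 54.4 beside 14.1 to 35.2. Cr2 was lower than in MZ B cells, at 221, 181, 113 and 134 CPM. Fcer2a was at 180.3 to 240.5 CPM, below MZ B cells in each library. In shares of all B cell UMIs of a gene, GC Centroblast cells gave 33.0% to 50.9% for Cd9 and 29.7% to 35.4% for Plac8. They held 17.0, 18.9, 23.7 and 20.2% of all B cell UMIs, and were 10.6, 12.1, 17.2 and 13.5% of the B cells.

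Cd1d1 was highest in Trans B cells in all 4 libraries, at 86.0, 46.6, 109 and 102 CPM. Its interval overlapped that of MZ B cells in both wild types and lay above it in both knockouts. Trans B cells had little Cr2, at 89.5, 109, 37.9 and 45.1 CPM, and little Dtx1, at 20.5 to 31.4 CPM. In GC Centrocyte cells Cr2 was at 139, 28.6, 29.9 and 33.0 CPM and Fcer2a at 48.7, 53.9, 27.2 and 50.1 CPM. The young WT values of this type came from 44 cells whose summed UMIs included platelet markers, and platelets are known to carry Cd9 and Cd36 products. How many of these cells held the markers was not counted. The part of platelet RNA in the GC Centrocyte levels of Cd9 (131 CPM) and Cd36 (48.7 CPM) in young WT was not tested.

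Outside B cells the genes parted: 4 were close to 0 in T cells, while others had sizeable levels in T cells or in myeloid cells. Cr2 was at 3.29 to 3.73 CPM over all T cells, Fcer2a at 2.97 to 7.67 CPM, S1pr3 at 0.219 to 0.594 CPM and Myof at 0 to 0.25 CPM, well under their levels in MZ B cells. Dtx1 was at 48.6 to 98.7 CPM over all T cells, against 96.4 to 109 CPM in MZ B and 31.0 to 52.7 CPM in Fo B cells. Plac8 reached 4481 to 4988 CPM in Ly6c+ monocytes. Cd9 was at 771 to 1636 CPM in granulocytes and Cd36 at 86.6 to 268 CPM in Ly6c- monocytes. Asb2 was at 100.1 to 230.2 CPM in dendritic cells and macrophages, and over all T cells at 5.88, 16.2, 59.3 and 38.6 CPM in the order of the libraries.

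With age in wild type mice, 5 of the 9 marginal zone genes were called lower in MZ B cells, and none of the 10 genes was called higher. Called lower were Cd36, Cd9, Asb2, Cd1d1 and S1pr3, against 5.56% of the 8816 genes tested (4.89% were called higher). Cr2, Dtx1 and Plac8, genes of the same MZ B cells, kept ratios of 1.02, 1.00 and 0.858. The median log2 ratio of aged over young WT over the 9 genes was −0.64, beside −0.03 over all genes tested.

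Cd36 in MZ B cells was at 35.2 CPM in young and 14.1 CPM in aged WT, a ratio of 0.401 (0.270 to 0.588). Cd9 was at 54.1 and 27.9 CPM, a ratio of 0.515 (0.386 to 0.684). Asb2 was at 15.5 and 8.11 CPM, a ratio of 0.525 (0.300 to 0.899). The intervals of these 3 ratios lie below 1. Cd1d1 was at 73.0 and 45.9 CPM, a ratio of 0.628 (0.499 to 0.790). S1pr3 had a ratio of 0.639 (0.380 to 1.06), whose interval includes 1. The calls of Cd1d1 and S1pr3 were lost when each cell was given equal weight, with ratios of 0.676 and 0.70, and when cells with a T cell or myeloid marker UMI were left out, with ratios of 0.718 and 0.679.

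Cd36 and Cd1d1 had ratios below 1 with age in all 5 B cell types, and whether any gene's ratio differed between types was not tested. Cd36 was lower in GC Centroblast cells, at 54.4 CPM in young and 17.2 CPM in aged WT, a ratio of 0.316 (0.197 to 0.496). Cd9 there was at 78.1 and 82.3 CPM, a ratio of 1.05 (0.809 to 1.38). Cd1d1 had ratios of 0.642 (0.443 to 0.925) in GC Centroblast and 0.542 (0.346 to 0.831) in Trans B cells. Plac8 in Trans B cells was at 1161 CPM in young and 658 CPM in aged WT, a ratio of 0.567 (0.506 to 0.634). Called in GC Centroblast cells were 0 of 8 genes higher and 2 lower, where 6.88% and 7.53% of all genes were. Called in Trans B cells were 0 of 6 genes higher and 3 lower, where 7.72% and 6.61% of all genes were, and the third lower gene was Cd36 at 0.602 (0.275 to 1.24). In the small GC Centrocyte type Cr2 had a ratio of 0.206 (0.0875 to 0.435), Plac8 of 0.489 (0.394 to 0.606), Cd9 of 0.629 (0.364 to 1.08) and Cd36 of 0.652 (0.256 to 1.61).

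In Fo B cells 1 of the 7 genes with enough UMIs was called lower with age, Cd36 at 6.43 and 3.50 CPM (ratio 0.545, 0.231 to 1.23, from 17 and 11 UMIs), against 4.18% of all genes, and 0 higher, against 4.78%. The other 3 genes, Myof, S1pr3 and Asb2, had under 20 UMIs in the 2 Fo B profiles and were not read. Fcer2a in Fo B cells was at 570.0 CPM in young and 480.2 CPM in aged WT, a ratio of 0.842 (0.784 to 0.905). Dtx1 had a ratio of 1.39 (1.05 to 1.85) in the other direction. Over all B cells together, 3 of the 10 genes were called lower with age, Cd36, Asb2 and Cd1d1, against 3.68% of all genes, and 0 higher, against 4.05%. With the 5 types weighted in both libraries by their shares of aged WT B cells, the ratios of these genes, 0.415, 0.611 and 0.643, became 0.426, 0.588 and 0.670. The former ratios weight a type by its UMIs and not its cells, so the change is not of the mix alone. The all-B call of Asb2 was lost with each cell weighted alike (ratio 0.670), and that of Cd1d1 without cells holding T cell or myeloid marker UMIs (ratio 0.675). In summed counts, fewer expressing cells and less RNA per expressing cell cannot be told apart.

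In the miR-146a knockout, Fcer2a was lower than in aged WT in Fo B, MZ B and Trans B cells, and Plac8 and Cr2 were higher in Fo B cells. The marginal zone genes in MZ B cells lay near aged WT, with a median log2 ratio of −0.10 beside −0.10 over all genes tested. The values differed with the cells kept. Without cells holding T cell or myeloid marker UMIs, Cd1d1, Cd9 and Myof had MZ B ratios of 0.488, 0.510 and 0.476 and Cd36 one of 1.52, each past 1.5-fold. That step left out 87.6% of the 622 MZ B cells of the knockout. Before it, these cells held 86, 49, 21 and 34 UMIs of Cd1d1, Cd9, Myof and Cd36, so the ratios rest on few counts, and no intervals were taken for them. Myof was also past 1.5-fold, at 0.641, when only cells with UMIs of Cd3d, Cd3e, Cd3g, Csf1r, C1qa or C1qb were left out. That alternative was chosen after seeing the data. Called in MZ B cells were 1 gene higher, S1pr3, and 1 lower, Fcer2a, against 4.67% and 7.91% of all genes. Among Fo B cells 1 of 7 genes was called higher, Plac8, and 1 lower, Fcer2a, against 4.13% and 8.25%.

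Fcer2a in Fo B cells was at 480.2 CPM in aged WT and 310.2 CPM in the knockout, a ratio of 0.646 (0.591 to 0.706). Its MZ B level was 361 and 212 CPM, a ratio of 0.587 (0.525 to 0.657). In Trans B cells it was at 262 and 72.6 CPM, a ratio of 0.277 (0.196 to 0.385). Of the 5 types, GC Centroblast cells stood nearest to aged WT, at 201 and 186 CPM, a ratio of 0.927 (0.794 to 1.08). Over all B cells the ratio was 0.585 (0.550 to 0.621), and 0.625 with the 5 types weighted in both libraries by their shares of aged WT B cells. With edgeR's TMM scaling, which moved the Fo B ratios of this comparison up, the Fo B ratio was 0.689, just short of 1.5-fold. Over all B cells, called were 0 of 10 genes higher and 1 lower, where 7.71% and 3.96% of all genes were.

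Plac8 in Fo B cells was at 409 CPM in aged WT and 632 CPM in the knockout, a ratio of 1.55 (1.43 to 1.67). Its MZ B ratio was 1.08 (1.02 to 1.15), and in GC Centroblast cells 0.749 (0.705 to 0.796), so the direction differed by type. Plac8 is also a monocyte gene, and myeloid markers (Lyz2, S100a8, S100a9, Csf1r, C1qa, C1qb) summed to 53.2 CPM in Fo B cells of aged WT and 746 CPM in the knockout. S100a8 and S100a9 gave 377 and 268 CPM of that, while Csf1r, C1qa and C1qb were at 2.07, 0.827 and 4.96 CPM. The same sum was 40.8 and 603 CPM in naive CD8 T cells, whose Plac8 level was 382 and 371 CPM. Granulocytes of the knockout had 288 CPM of Plac8, below its Fo B cells. The part of myeloid RNA in the Fo B level of Plac8 was not tested.

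Cr2 in Fo B cells was at 169 CPM in aged WT and 213 CPM in the knockout, a ratio of 1.26 (1.12 to 1.43). The MZ B ratio was 0.932 (0.843 to 1.03), and in GC Centroblast cells it was 0.622 (0.518 to 0.746). Called in the latter were 0 of 8 genes higher and 3 lower, where 5.35% and 6.9% of all genes were. The 3 lower ones were Cr2, S1pr3 (0.624, 0.328 to 1.16) and Cd36 (0.633, 0.338 to 1.17), and only the interval of Cr2 excludes 1. S1pr3 in MZ B cells, called higher by size, had a ratio of 1.61 (0.948 to 2.76), whose interval includes 1. Cd36, Cd9, Asb2 and Cd1d1, the genes that were lower with age in MZ B cells, had MZ B ratios of 1.13 (0.692 to 1.83), 0.823 (0.564 to 1.19), 0.980 (0.492 to 1.92) and 0.878 (0.660 to 1.16). None of these 4 intervals excludes 1, and the ratios of Cd1d1, Cd9 and Cd36 moved past 1.5-fold without the marker-holding cells, as given above. The aged WT library is in both comparisons, so they share its sampling error.

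Trans B cells of the knockout differed from aged WT in both directions. Cr2 was at 109 CPM in aged WT and 37.9 CPM in the knockout, a ratio of 0.347 (0.209 to 0.556). Cd1d1 went the other way, at 46.6 and 109 CPM, a ratio of 2.34 (1.52 to 3.67). Of 6 genes with enough UMIs, 1 was called higher and 2 lower, where 14.3% and 11.5% of all genes were. Beside this, Vpreb3, a gene of immature B cells, was at 1204, 1012, 3433 and 2777 CPM in the 4 libraries, and Cd93, an early B cell surface marker, at 38.3, 34.9, 104 and 66.9 CPM. The myeloid marker sum of these cells was 42.2 CPM in aged WT and 821 CPM in the knockout. The part of either in these ratios was not tested.

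**Figure D3:**
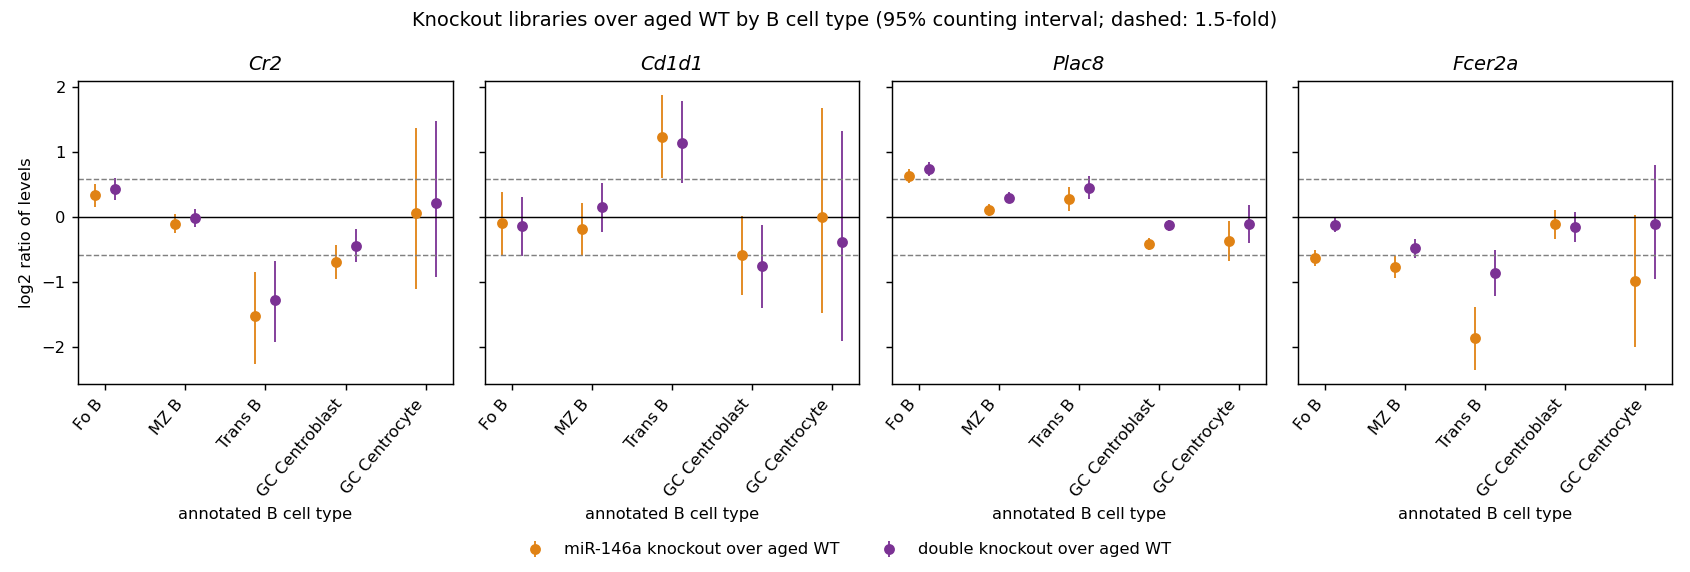
Log2 ratio of the miR-146a knockout and of the double knockout over aged WT (vertical axis) for Cr2, Cd1d1, Plac8 and Fcer2a in each annotated B cell type, with 95% counting intervals; dashed lines mark 1.5-fold. Both series share the aged WT library. Fcer2a is lowest in Trans B cells of the miR-146a knockout (ratio 0.277), where Cd1d1 is higher (ratio 2.34), and Plac8 is higher in Fo B cells of both.

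The double knockout, compared with the miR-146a knockout, had more Fcer2a in Fo B, MZ B and Trans B cells and more Asb2 in MZ B cells. Fcer2a in Fo B cells was at 310.2 CPM in the miR-146a knockout and 439.8 CPM in the double knockout, a ratio of 1.42 (1.30 to 1.55). Its MZ B level was 212 and 259 CPM, a ratio of 1.22 (1.08 to 1.38). In Trans B cells it was at 72.6 and 145 CPM, a ratio of 1.99 (1.40 to 2.88). GC Centroblast cells had a ratio of 0.968 (0.827 to 1.13). Against aged WT the double knockout had ratios of 0.916 (0.850 to 0.987) in Fo B, 0.716 (0.646 to 0.794) in MZ B and 0.552 (0.430 to 0.706) in Trans B cells, so its level lay between the 2 other aged libraries in each of these types. The 3 comparisons among aged libraries are not independent, since each library enters 2 of them.

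Called higher over the miR-146a knockout were 1 of 10 genes in MZ B cells, Asb2, against 5.47% of all genes, and 1 of 7 in Fo B cells, Cd36, against 5.52%. None was called lower in either type, where 4.28% and 3.97% of all genes were. Asb2 in MZ B cells was at 7.96 and 15.7 CPM, a ratio of 1.97 (1.07 to 3.75), which put it near the young WT level of 15.5 CPM. Cd36 in Fo B cells had a ratio of 2.04 (0.946 to 4.76), from 10 and 25 UMIs, with an interval that includes 1, and lost its call without cells holding T cell or myeloid marker UMIs, at 1.39. Cr2 had ratios of 1.06 (0.957 to 1.18) in MZ B and 1.06 (0.948 to 1.20) in Fo B cells, and Dtx1 of 1.03 (0.848 to 1.25) and 1.02 (0.80 to 1.30). These intervals include 1 and do not reach 1.5-fold. Trans B cells had 3 of 6 genes higher and 0 lower, where 7.32% and 8.29% of all genes were, namely Fcer2a, Cd9 (2.36, 1.15 to 5.22) and Dtx1 (1.53, 0.743 to 3.29). GC Centroblast cells had 3 of 10 genes higher and 0 lower, where 5.3% and 5.8% of all genes were, namely Asb2 (3.21, 1.11 to 11.3), S1pr3 (1.86, 1.03 to 3.46) and Myof (2.50, 0.902 to 7.94), each with under 40 UMIs in a profile. Over all B cells, called were 0 of 10 genes higher and 0 lower, where 2.81% and 3.3% of all genes were.

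Plac8 was somewhat higher in the double than in the miR-146a knockout in each of the 5 types, with ratios of 1.14 in MZ B, 1.08 in Fo B, 1.22 in GC Centroblast, 1.20 in GC Centrocyte and 1.12 in Trans B cells, none of them called. Against aged WT its Fo B ratio was 1.67 (1.56 to 1.79), from 409 to 682 CPM. In Fo B cells of the double knockout the myeloid markers summed to 977 CPM, with Csf1r and C1qb at 0. In that comparison 2 of 7 genes were called higher in Fo B cells, Plac8 and Cd36, against 3.92% of all genes, and 0 lower, against 5.96%. Without cells holding T cell or myeloid marker UMIs the Cd36 ratio was 1.27, in place of 2.41. Among the 10 genes in MZ B cells 2 were, Asb2 (ratio 1.93, 1.11 to 3.42) and Cd36 (1.58, 1.02 to 2.46), against 4.84%, and 1 was called lower, Myof (0.650, 0.359 to 1.14), against 6.89%. With TMM scaling Myof had a ratio of 0.686 and was not called. S1pr3, at 1.49 (0.876 to 2.57), was just short of 1.5-fold and passed it under 4 alternatives, at 1.55 with TMM scaling, 1.74 with each cell weighted alike, 2.58 without cells holding T cell or myeloid marker UMIs and 1.59 with the smaller marker set. Trans B cells had 2 of 6 genes higher and 2 lower, where 11.1% and 9.54% of all genes were. The higher ones were Cd1d1 (2.20, 1.43 to 3.44) and Cd9 (3.13, 1.45 to 7.48), and the lower ones Cr2 (0.413, 0.265 to 0.629) and Fcer2a. GC Centroblast cells had 1 of 10 genes higher and 1 lower, where 5.86% and 7.8% of all genes were, the first Myof (2.22, 0.80 to 7.04) and the second Cd1d1 (0.594, 0.378 to 0.922). Over all B cells, called were 1 of 10 genes higher and 0 lower, where 7.02% and 3.7% of all genes were, the gene being Asb2 at 1.79 (1.18 to 2.75).

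**Figure D4:**
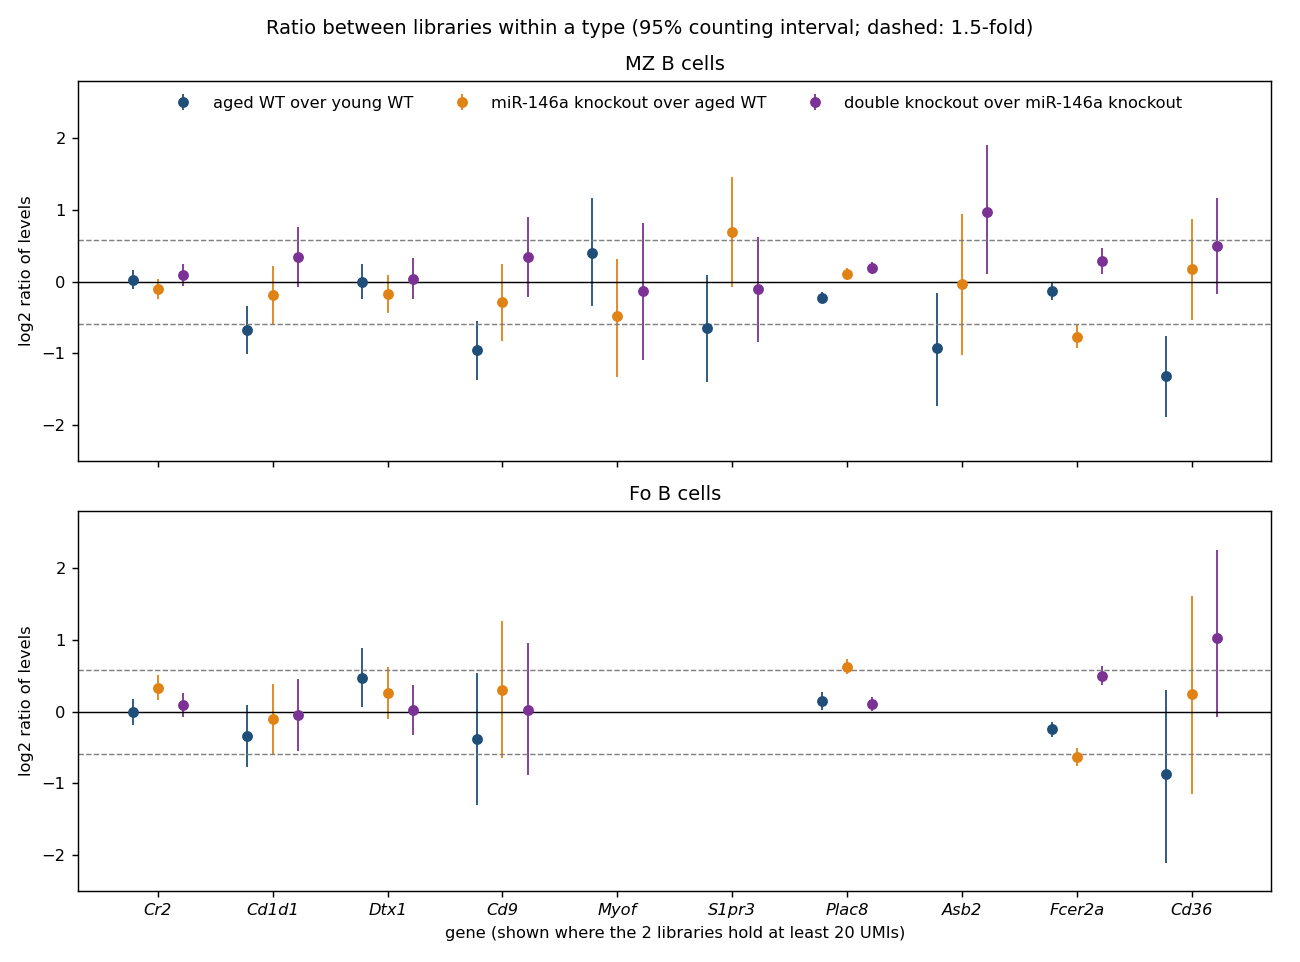
Log2 ratio between libraries (vertical axis) for each gene within MZ B cells (top) and Fo B cells (bottom), for 3 comparisons, with 95% counting intervals; dashed lines mark 1.5-fold and genes under 20 UMIs are not drawn. In MZ B cells Cd36, Cd9, Asb2, Cd1d1 and S1pr3 lie below the lower dashed line with age, and Fcer2a lies below it in the miR-146a knockout in both types (ratios of 0.587 and 0.646).

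Single cells were then read for Cr2 and Fcer2a together, with each cell thinned to 1000 UMIs so that depth was equal. This left out 1, 1, 1 and 0 MZ B cells and 23, 6, 19 and 11 Fo B cells. Of MZ B cells, 17.7, 19.3, 21.1 and 21.1% held Cr2 without Fcer2a in the order of the libraries above, and 24.5, 22.7, 16.3 and 16.2% held Fcer2a without Cr2. In young WT, MZ B cells with Fcer2a alone were the more frequent, at 24.5% (21.9 to 27.3) against 17.7% (15.4 to 20.2) with Cr2 alone. The order was the same in aged WT and reversed in both knockouts, but in these libraries the intervals overlapped. Of Fo B cells, 35.8, 31.7, 21.1 and 29.8% held Fcer2a alone and 8.63, 8.65, 13.7 and 11.5% Cr2 alone. Both genes were found in 6.91, 6.77, 4.83 and 4.42% of MZ B and 5.21, 5.20, 3.82 and 6.20% of Fo B cells. In MZ B cells that share lay slightly below the product of the separate shares in each library, for example 6.91% against 7.73% in young WT, a gap within its counting interval.

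In Trans B cells, Fcer2a alone was found in 19.7, 16.5, 5.82 and 9.37% of cells. In naive CD8 T cells thinned alike, 0 to 0.833% held Cr2 and 0 to 1.09% held Fcer2a, and the source of these UMIs was not tested. Without thinning, Cr2 was found in 45.5, 47.7, 54.3 and 49.9% of MZ B and 24.1, 22.5, 33.1 and 31.0% of Fo B cells, and Fcer2a in 58.7, 53.4, 46.7 and 53.0% of Fo B cells. At 1000 UMIs per cell, 50.9, 51.2, 57.8 and 58.3% of MZ B cells showed neither gene, which need not mean that they lack both. The parts of depth and of absence in these shares were not tested. The mean number of the 9 marginal zone genes with a UMI in a thinned cell was 0.882, 0.897, 0.961 and 0.999 in MZ B cells, and 0.456, 0.481, 0.670 and 0.670 in Fo B cells. Leaving Plac8 aside, at least 2 of the other 8 genes were found in 8.75, 8.75, 7.41 and 8.60% of MZ B and 1.37, 1.47, 3.01 and 2.04% of Fo B cells.

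**Figure D5:**
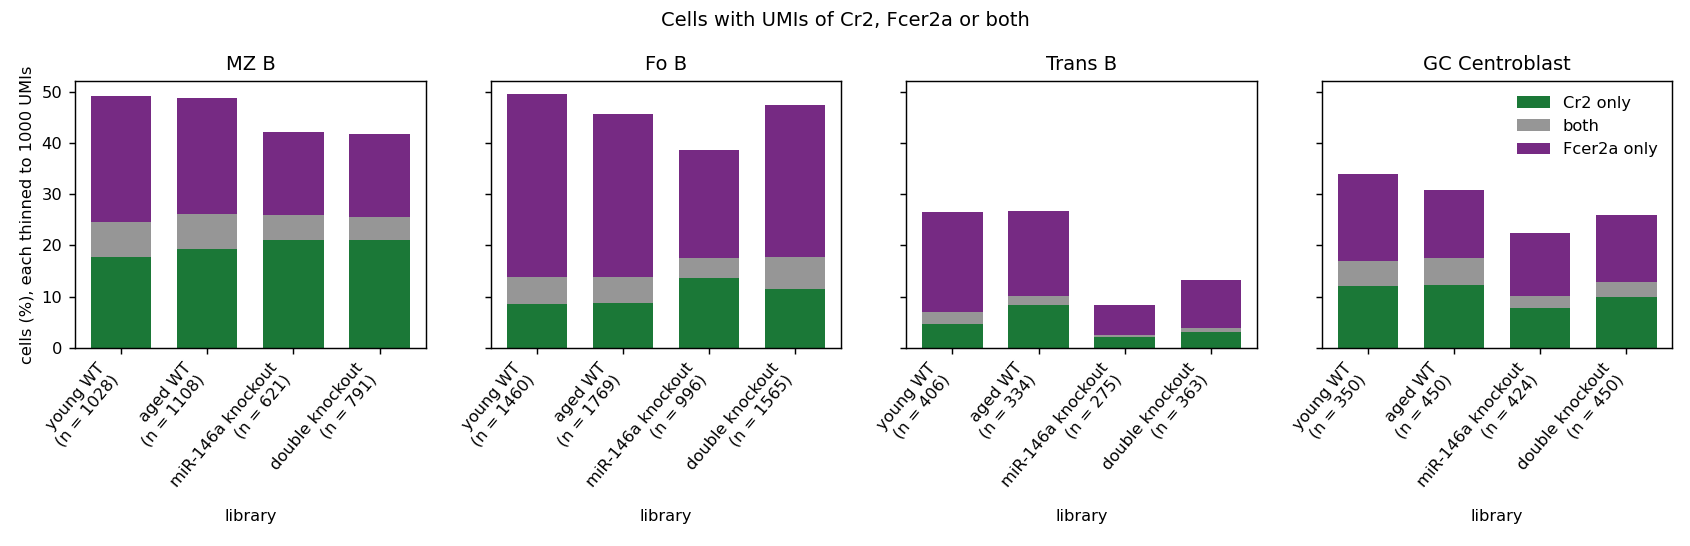
Share of cells (vertical axis, %) with UMIs of Cr2 only, of both genes or of Fcer2a only after each cell was thinned to 1000 UMIs, by library and type; the rest of each bar to 100% had neither. In MZ B cells the Fcer2a-only part is 24.5, 22.7, 16.3 and 16.2% from left to right, and in Trans B cells 19.7, 16.5, 5.82 and 9.37%.

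MZ B cells made up 31.0, 29.8, 25.2 and 23.7% of annotated B cells, with exact Clopper-Pearson intervals of 29.5 to 32.6, 28.4 to 31.3, 23.5 to 26.9 and 22.3 to 25.2%. Fo B cells made up 44.7, 47.7, 41.0 and 47.2%. The names may rest on these same genes, so the shares describe the annotation.

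Genes of the Notch pathway that are not in the set were read beside it. Of 20 such genes, 15 to 17 had enough UMIs in MZ B and Fo B cells, and 3, 3, 2 and 1 of them were called higher in MZ B cells and 2, 1, 2 and 1 lower, in the order of the libraries. The shares of all genes were 6.25%, 5.17%, 6.01% and 6.2% higher and 6.21%, 6.59%, 7.42% and 7.49% lower, so 1 or 2 calls of the list are near them. Notch2, the receptor, was lower in MZ B than in Fo B cells in all 4 libraries, with ratios of 0.725 (0.611 to 0.858), 0.774 (0.660 to 0.908), 0.584 (0.479 to 0.711) and 0.729 (0.605 to 0.876). Hes1, a transcriptional repressor induced by Notch, had ratios of MZ B over Fo B of 2.20 (1.81 to 2.68), 1.70 (1.41 to 2.05), 1.12 (0.921 to 1.36) and 1.46 (1.22 to 1.76). Its level in MZ B cells was 126, 104, 97.3 and 114 CPM, and in Fo B cells 57.5, 61.1, 86.9 and 78.0 CPM. It was called higher in both wild types and in neither knockout, and in the miR-146a knockout, where its Fo B level was highest, the interval of the ratio includes 1.

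With age, the pathway had 3 of 16 genes called higher and 0 lower in MZ B cells, against 4.89% and 5.56% of all genes, led by Maml3 and Maml2, genes of Mastermind co-activators. Maml3 was at 3.09 CPM in young and 8.11 CPM in aged WT, a ratio of 2.63 (1.13 to 6.79), and Maml2 had a ratio of 1.62 (1.06 to 2.51). The lowest ratios were those of Hes5, 0.691 (0.407 to 1.16), and Dtx2, 0.731 (0.458 to 1.16), whose intervals include 1. Against aged WT, the miR-146a knockout had 1 of 17 called higher and 3 lower in MZ B cells, against 4.67% and 7.91% of all genes. Maml3 and Maml2 were the lowest, with ratios of 0.231 (0.0580 to 0.675) and 0.518 (0.313 to 0.834), and Maml1 was the highest, at 1.59 (0.758 to 3.39), followed by Notch1 and Dtx3, both at 1.33, again with intervals that include 1. The genes of this paragraph so far had under 100 UMIs in each profile. Between the 2 knockouts, 0 of 15 were called higher and 2 lower, against 5.47% and 4.28% of all genes, and Notch2 and Hes1 had ratios of 1.12 (0.895 to 1.39) and 1.17 (0.972 to 1.41).

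Of 13 other marginal zone genes found in the matrices (Cd1d2 was the 14th), 12 had enough UMIs in both types, and 2, 2, 3 and 4 were called higher in MZ B cells and 0 lower. Of all genes 6.25%, 5.17%, 6.01% and 6.2% were called higher, and 6.21% to 7.49% lower. Fcrl5, which encodes an Fc receptor-like protein of marginal zone B cells, had the highest ratio in each library, 9.42 (4.52 to 22.7) in aged WT and 6.02 (3.09 to 12.8) in the double knockout. Cd86, a co-stimulatory ligand gene, had ratios of 1.65, 2.06, 2.15 and 1.58. Itgb1, the integrin β1 chain gene of adhesion to matrix, was the one that parted the knockouts from aged WT in MZ B cells, at 17.3 CPM in aged WT and 33.2 CPM in the miR-146a knockout, a ratio of 1.92 (1.32 to 2.83). In the double knockout it was at 33.1 CPM. It was not so in Fo B cells, with a ratio of 1.04 (0.651 to 1.65).

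Of 10 other follicular genes, 0, 0, 0 and 0 were called higher and 2, 2, 3 and 3 lower in MZ B than in Fo B cells, where 6.21%, 6.59%, 7.42% and 7.49% of all genes were called lower. Klf2, a transcription factor gene of quiescence and homing, was at 745 to 983 CPM in MZ B and 1387 to 1780.4 CPM in Fo B cells. It was lower in MZ B cells in all 4 libraries, with ratios of 0.489 to 0.571. Against aged WT, Fo B cells of the miR-146a knockout had 1 of the 10 genes called lower, close to the 8.25% of all genes, the chemokine receptor gene Ccr7, at 223 and 126 CPM, a ratio of 0.564 (0.491 to 0.646). In the double knockout Ccr7 was at 179.9 CPM, a ratio of 1.43 (1.24 to 1.65) to the miR-146a knockout. Klf2 had Fo B ratios of 0.813 (0.779 to 0.849) and 1.14 (1.09 to 1.19) in these comparisons. No gene of this list was called with age in MZ B or Fo B cells.

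Across the 20 profiles of 5 types in 4 libraries, the genes whose level was most like Cr2 among 7717 genes were Tm6sf1, Bcl2, Chd7, Hexa and Pfkfb4, with Pearson correlations of log2(CPM + 5) from 0.938 down to 0.885. Most like Fcer2a were Lamb3, Ier5, Eif4a2, Shisa5 and Clec2i, from 0.962 to 0.949. Cr2 and Fcer2a themselves had a correlation of 0.774 and both were low in Trans B and GC Centrocyte profiles of the knockouts. Of the marginal zone genes, Myof (0.659) and Dtx1 (0.532) were the most like Cr2, while Cd9 (-0.143) was the least so. Profiles of a library share its preparation and those of a type its annotation, so these values describe likeness only.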

How the data were processed

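The authors deposited raw UMI counts per gene and barcode for the 4 libraries, made with Cell Ranger 3.0.0 on mm10 per the submitters' processing notes, and a cell type name (16 names, unit other) per annotated barcode. The sources used here do not give how names were assigned. Cells the authors named as T/B doublets were kept out of the B types, no doublet caller was run, and 3434 unnamed barcodes were left out. Both 3′ and 5′ chemistry appear in the labels.

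UMIs were summed over the cells of each B type and library and scaled to 1000000 (CPM). Intervals at 95% were exact Poisson for levels, Clopper-Pearson for shares and conditional binomial for ratios. The ratio interval alone was run on simulated counts, modelled on MZ B cells of young and aged WT. These counts were drawn as Poisson, which the interval assumes, so the run cannot show its coverage of real counts. Log2 ratios had 0.5 count added. A call needed at least 20 UMIs over both profiles and 1.5-fold; a gene at 0 was set to a floor of 3 counts. Cells were thinned with random seed 1. Likeness was read among genes of at least 200 B cell UMIs, without immunoglobulin, ribosomal protein, mitochondrial, Gm-number and Rik genes. Named were the 10 genes, Notch2, Hes1, Klf2, and the 2 highest and 2 lowest of each list per comparison, of which the text gives those it needs. The other list genes it gives as examples in single types were chosen after their values were seen. A few list and marker genes are not reported here and were left out of the counts and sums. The genes and lists were chosen with earlier results of these data known.

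Alternatives were edgeR 4.0.16 TMM scaling (R 4.3.3), totals without immunoglobulin genes, a mean over cells, cells of at least 1000 UMIs, cells without T cell or myeloid marker UMIs, no minimum, and 1 count added. Python 3.11.15, numpy 2.4.6, scipy 1.17.1 and pandas 2.3.3 were used. Gene positions are those of the GENCODE annotation of GRCm38, the assembly of mm10. Promoters are from RefSeq. No replicates exist, so no test was run.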

Additional observations from a re-analysis of the deposited data

Results flagged for a closer look

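Against aged WT, 2 genes differed in opposite directions between B cell types of the double knockout. Cd1d1 had a ratio of 2.20 in Trans B cells (1.43 to 3.44) and of 0.594 in GC Centroblast cells (0.378 to 0.922), and was marked because both intervals lie beyond 1 on opposite sides. Cd9 had a ratio of 3.13 in Trans B cells (1.45 to 7.48, from 9 and 30 UMIs) and of 0.355 in GC Centrocyte cells (0.195 to 0.644, from 26 and 24 UMIs). With 1 library per group these differences were not tested. Beside them, in GC Centrocyte cells of aged WT and the double knockout the T cell marker sum was 796 and 253 CPM, the myeloid sum 19.0 and 888 CPM, and the plasma cell sum (Jchain, Xbp1, Sdc1, Prdm1) 739 and 1267 CPM. The myeloid sum of Trans B cells was 42.2 and 945 CPM. Their part in these ratios was not tested.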

How the results depend on the processing

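Of the medians and shares under the alternatives, 136 stayed within a window around the reported value and 8 moved. For a share the window was its counting interval. For a median it ran between the medians of the lower and upper bounds of the single-gene intervals. It is thus a typical error of single genes and not the counting error of the median. Leaving out cells with any T cell or myeloid marker UMI removed 85.6% and 85.1% of knockout B cells, against 17.2% and 16.1% in young and aged WT. It brought the median log2 ratio of MZ B over Fo B to 0.42 (miR-146a knockout) and 0.48 (double knockout). In young and aged WT that median came to 2.07 and 1.54, within the windows. The same step brought the MZ B share of the knockouts to 21.6% and 18.3%. It turned Cd1d1 in the miR-146a knockout to a log2 ratio of −0.12. Where cells were left out, a median covered only the genes that still held at least 20 UMIs. Values of single genes had no such minimum after cells were left out, and in the knockouts they rest on few of the cells. An alternative chosen after seeing the data left out only cells with UMIs of Cd3d, Cd3e, Cd3g, Csf1r, C1qa or C1qb (5.76% to 10.0% of B cells). It moved none of its 20 medians and shares out of their windows, though the aged WT median of MZ B over Fo B went from 1.96 to 1.58. With MZ B and Fo B cells alone in the denominator, the MZ B share was 41.0%, 38.5%, 38.0% and 33.4%. Of the values of single genes, 1084 stayed within counting error and 35 moved. The alternatives covered the 10 genes in MZ B over Fo B cells, and between libraries in MZ B, Fo B and all B cells. Ratios in Trans B, GC Centroblast and GC Centrocyte cells, and those of the other gene lists, were not run under them. A further 1, which had been called with an interval excluding 1, changed sign. Changes of sign among values not so called were not counted apart. No paired analysis was possible because each group has 1 library. The limits are depth, with at most 40 UMIs of S1pr3, Myof or Asb2 in any MZ B profile, and the lack of replicates.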

Other observations

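Several follicular genes outside the set stood lower in cells annotated Trans B of both knockouts. Against aged WT, the miR-146a knockout had 7 of 10 called lower and 0 higher, where 11.5% and 14.3% of all genes were. Klf2 was at 2229 and 1316 CPM, a ratio of 0.591 (0.542 to 0.643). The co-stimulatory ligand gene Icosl had a ratio of 0.316 (0.161 to 0.583) and Cxcr5, a receptor gene of homing to follicles, one of 0.446 (0.277 to 0.703), while Foxo1, a transcription factor gene of B cell development, had one of 1.44 (1.07 to 1.93). In the double knockout against aged WT, 3 of 10 were called lower (9.54% of all genes), and Klf2 was at 1682 CPM. The transitional markers stood higher in both knockouts, as given above, and their part in these ratios was not tested.

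In the 3434 barcodes without a cell type name, which no comparison used, Cr2 was at 248, 169, 53.8 and 62.5 CPM and Fcer2a at 236, 148, 38.8 and 31.7 CPM in young WT, aged WT, the miR-146a knockout and the double knockout.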
